A study of Mus musculus with 12 samples.

Results

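Interferon signalling and interferon-stimulated genes were followed in a mouse hepatoma line and in primary liver endothelium, each grown alone or with the other. The set held 47 genes, taken by symbol from a table of 45777, and all 47 were found. By role they were 1 ligand, 4 receptor subunits, 5 signal transducers or transcription factors, 2 feedback inhibitors, 5 nucleic acid sensors, 5 genes of ubiquitin-like modification or ADP-ribosylation, 14 antiviral effectors, 9 interferon-inducible GTPases and 2 chemokines. The rule used symbols alone, with no threshold on a measured value, but the genes were chosen with earlier results of these data known. Counts set beside the share over all genes therefore describe the set and do not test it.

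The cultures fell into 4 groups with 3 libraries each, namely Hepa1-6 mono-culture, Hepa1-6 co-culture, LSEC mono-culture and LSEC co-culture. Hepa1-6 is a mouse hepatoma cell line, and LSECs are the liver sinusoidal endothelial cells that line the capillaries of the liver. LSECs (500000 cells) were seeded on the plate and Hepa1-6 cells (100000 cells) in an insert with 3 μm pores, and the co-cultures shared their medium, with 2% serum, for 24 h. The labels give no strain, age or sex for the LSEC donors, no genetic change and no added agent such as an interferon in any group, and they do not say whether LSECs of different wells came from different animals. P-values therefore measure the spread between these libraries, which may be technical.

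Total counts ranged from 32761492 to 48870698 per library. All 14 listed endothelial markers reached 1 CPM (read counts scaled to library size) in both LSEC groups, with sums of 13794 CPM or more in every LSEC library and at most 40.2 CPM in the Hepa1-6 libraries. The LSEC libraries also carried all 18 listed macrophage and Kupffer cell markers at 1 CPM or more. Replicate 1 of each LSEC group stood apart from replicates 2 and 3, where the chi-square statistic over all genes, divided by its degrees of freedom, was 167 to 271, against 4.04 and 5.11 between replicates 2 and 3. Among the interferon genes, replicate 1 was over 1.5 times the mean of the other two for 11 genes in LSEC mono-culture and 7 in co-culture, and under the inverse of that for 7 and 3. Bst2, Isg15 and Ifi35 were among the high genes and Gbp7 and Eif2ak2 among the low ones. Same-numbered LSEC libraries deviated together (correlations of 0.892, 0.684 and 0.717). Replicates 2 and 3 did so across numbers as well (0.744 and 0.688), so pairing by number within them is not shown. A fit with replicate number as a block is given beside LSEC results where it changes the call, as counts for the lists of markers and further genes.

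Interferons are secreted proteins that cells release on sensing viral nucleic acid or, for interferon gamma, that lymphocytes release on activation. Type I interferons bind the receptor of Ifnar1 and Ifnar2, and signal mainly through a complex that holds STAT2 and IRF9 and binds the interferon-stimulated response element (ISRE). Interferon gamma binds the receptor of Ifngr1 and Ifngr2, and its targets often carry the gamma-activated site (GAS). The genes switched on include antiviral effectors, GTPases that attack the vacuoles of intracellular pathogens, and chemokines that draw T cells. Liver endothelium and Kupffer cells are known to respond to both kinds of interferon.

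The promoters of the set were read from RefSeq (build GRCm38.p6) as 250 bases before to 50 after a transcript start, and are shown because the 2 elements above are the known route from interferon to these genes. Of the 47 genes, 39 had a promoter entry. Zbp1, Iigp1, Mx1, Mx2, Dhx58, Usp18, Parp14 and Parp9 had none. The ISRE core searched was GAAANNGAAA on either strand (TTTCNNTTTC on the other), and the GAS core was TTCNNNGAA, which reads the same on both strands. The 39 genes had 44 promoters, since some have more than 1 start. The ISRE core lay in the windows of 20 of the 39 genes and in 20 of the 44 promoters, against 3.44% of all 32851 promoters. The GAS core lay in 14 of the 39 genes and in 14 of the 44 promoters, against 8.30% of all promoters. The motifs can overlap, and a match describes letters only.

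The GTPase genes Igtp, Irgm2 and Tgtp1 of chromosome 11 had a GAS core followed by an ISRE core whose first bases were 11 apart. That spacing was noticed after the search, and 5 of the 32851 promoters (0.0152%) had it. Up to the end of the ISRE core the 50-base stretches are near copies of each other, and beyond it Tgtp1 differs from Igtp and Irgm2. Capitals mark first the GAS and then the ISRE core. Those of Igtp (chr11:58199501-58199550, plus strand), Irgm2 (chr11:58214892-58214941, plus strand) and Tgtp1 (chr11:48992295-48992344, minus strand) read as follows.
Igtp: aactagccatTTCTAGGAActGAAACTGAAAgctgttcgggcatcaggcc
Irgm2: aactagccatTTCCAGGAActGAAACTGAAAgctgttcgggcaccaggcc
Tgtp1: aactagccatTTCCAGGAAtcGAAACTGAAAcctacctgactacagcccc

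The next windows belong to the genes whose rise in co-cultured LSECs kept its call under every alternative run (Gbp2, Gbp3 and Cxcl9) and to Cxcl10, the companion of Cxcl9. Gbp2 (chr3:142620413-142620712, plus strand) has an ISRE core 59 bases before the start, Gbp3 (chr3:142559794-142560093, plus strand, the first of 2 starts) has overlapping ISRE cores 45 and 39 bases before it, and Cxcl10 (chr5:92348840-92349139, minus strand) has an ISRE core 213 bases before it. The Cxcl9 window (chr5:92328030-92328329, minus strand) holds neither core. Capitals mark the cores.
Gbp2: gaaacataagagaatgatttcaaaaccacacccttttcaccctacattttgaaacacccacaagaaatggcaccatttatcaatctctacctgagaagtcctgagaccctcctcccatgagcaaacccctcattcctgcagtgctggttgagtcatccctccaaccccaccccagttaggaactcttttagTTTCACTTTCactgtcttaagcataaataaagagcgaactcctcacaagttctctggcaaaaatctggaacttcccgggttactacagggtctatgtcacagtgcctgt
Gbp3: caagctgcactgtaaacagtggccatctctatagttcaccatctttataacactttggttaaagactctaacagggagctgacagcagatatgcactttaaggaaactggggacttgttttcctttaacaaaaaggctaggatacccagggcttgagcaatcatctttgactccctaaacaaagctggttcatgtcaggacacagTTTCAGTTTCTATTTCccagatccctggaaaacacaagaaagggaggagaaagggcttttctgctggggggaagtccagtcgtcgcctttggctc
Cxcl10: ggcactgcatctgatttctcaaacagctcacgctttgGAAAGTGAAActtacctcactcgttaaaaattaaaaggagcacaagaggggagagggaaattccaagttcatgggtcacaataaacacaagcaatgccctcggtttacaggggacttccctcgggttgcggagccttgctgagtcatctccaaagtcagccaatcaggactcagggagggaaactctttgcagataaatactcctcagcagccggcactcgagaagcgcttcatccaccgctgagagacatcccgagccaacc
Cxcl9: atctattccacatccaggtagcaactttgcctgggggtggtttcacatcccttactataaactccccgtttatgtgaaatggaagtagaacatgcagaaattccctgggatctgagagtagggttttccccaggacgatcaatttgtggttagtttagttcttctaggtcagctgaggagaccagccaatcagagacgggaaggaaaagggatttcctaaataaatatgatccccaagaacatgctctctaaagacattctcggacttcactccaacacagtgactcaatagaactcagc

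Ddx58 and Oas1a are shown because they rose in co-cultured Hepa1-6 cells, and Isg15 and Ifit3 because they are textbook targets of type I interferon that were not called in either cell's co-culture comparison without the block (Ifit3 was not tested in Hepa1-6 cells). Ddx58 (chr4:40239776-40240075, minus strand) has its ISRE core 3 bases into the transcript. Oas1a (chr5:120907476-120907775, minus strand) has overlapping ISRE cores 20 and 14 bases before the start and a GAS core at 98. Isg15 (chr4:156200769-156201068, minus strand) has 3 overlapping ISRE cores between 78 and 66 bases before the start, and Ifit3 (chr19:34583279-34583578, plus strand) has ISRE cores at 156 and 122. Capitals mark the cores.
Ddx58: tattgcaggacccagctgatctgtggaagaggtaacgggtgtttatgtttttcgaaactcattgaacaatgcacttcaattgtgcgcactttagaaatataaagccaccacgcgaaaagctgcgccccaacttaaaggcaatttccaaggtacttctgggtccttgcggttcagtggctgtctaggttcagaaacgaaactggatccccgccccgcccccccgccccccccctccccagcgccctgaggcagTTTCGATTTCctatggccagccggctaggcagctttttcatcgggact
Oas1a: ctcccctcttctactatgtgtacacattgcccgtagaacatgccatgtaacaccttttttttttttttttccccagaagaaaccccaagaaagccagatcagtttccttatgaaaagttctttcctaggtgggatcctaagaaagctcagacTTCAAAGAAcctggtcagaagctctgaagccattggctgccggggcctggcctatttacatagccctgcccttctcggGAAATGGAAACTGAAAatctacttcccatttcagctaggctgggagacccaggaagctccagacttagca
Isg15: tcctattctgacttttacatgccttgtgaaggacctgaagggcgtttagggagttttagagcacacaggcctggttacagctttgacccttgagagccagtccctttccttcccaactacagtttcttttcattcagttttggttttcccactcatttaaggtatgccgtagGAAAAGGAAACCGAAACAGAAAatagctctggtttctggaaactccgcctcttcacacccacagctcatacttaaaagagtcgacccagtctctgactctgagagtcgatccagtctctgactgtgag
Ifit3: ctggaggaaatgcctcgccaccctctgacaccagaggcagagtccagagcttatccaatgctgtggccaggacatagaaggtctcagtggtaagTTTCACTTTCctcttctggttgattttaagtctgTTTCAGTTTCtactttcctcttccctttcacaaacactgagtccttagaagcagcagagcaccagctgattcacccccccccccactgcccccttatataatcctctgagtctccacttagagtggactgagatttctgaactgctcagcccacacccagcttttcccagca

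**Figure D1:**
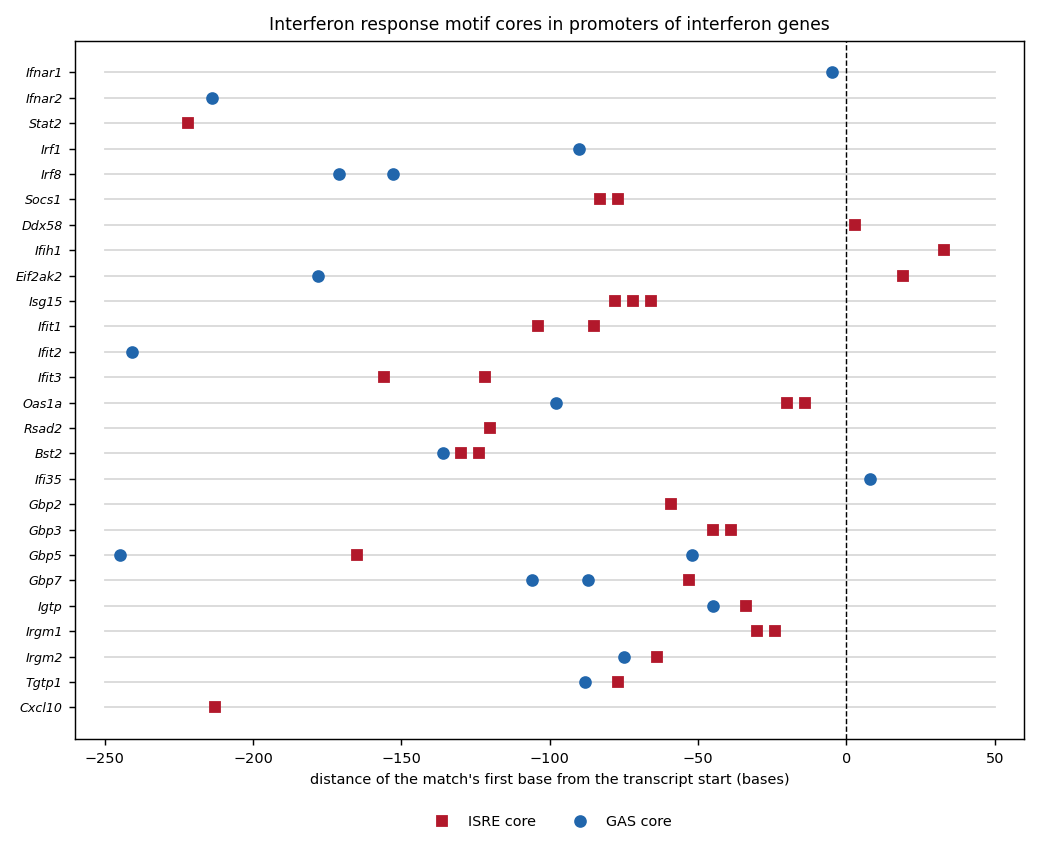
First base of each ISRE core (red squares) and GAS core (blue circles) in the RefSeq promoter windows of the interferon genes that hold one, in bases from the transcript start (dashed line). Igtp, Irgm2 and Tgtp1 share a GAS core 11 bases before an ISRE core, and Gbp2, Gbp3, Isg15 and Oas1a have ISRE cores within 100 bases before the start.

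Levels of the set differed widely between the cells before any contact, and the mono-cultures were compared to give that starting point. Of 46 genes tested, 37 were higher in LSECs alone than in Hepa1-6 cells alone, 5 were lower and 4 were not called (edgeR quasi-likelihood test, Benjamini-Hochberg adjusted p under 0.05 over all genes tested). The background was high, since 37.2% of all genes tested were higher and 32.8% lower. The median log2 difference was 2.13 over the interferon genes and 0.09 over all genes. On the length-normalised TPM scale, 38 of 47 genes had a mean of at least 10 TPM in LSECs alone against 16 in Hepa1-6 cells alone, and the median level was 24.3 against 4.15 TPM. Over all genes with a count the median was 3.75 TPM in LSECs alone and 3.54 TPM in Hepa1-6 cells alone.

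Bst2, which tethers budding virus particles to the cell, was the most abundant of the set in both mono-cultures, at 1178 ± 398 TPM in LSECs and 132 ± 13.4 TPM in Hepa1-6 cells (SD, n = 3). Irf7, the transcription factor that amplifies type I interferon, stood at 263, 186 and 155 CPM in LSECs alone and at 0.631, 0.708 and 0.668 CPM in Hepa1-6 cells alone, a log2 difference of 8.25 (SE 0.29, adjusted p = 4.39e-06). Ifit3, an RNA-binding antiviral protein, gave 105, 66.2 and 57.9 CPM in LSECs alone and 0.165, 0 and 0 CPM in Hepa1-6 cells alone (adjusted p = 4.21e-05). Its family member Ifit1 gave 22.6 ± 3.45 against 0.115 ± 0.0937 CPM, and Rsad2, which makes a chain-terminating nucleotide, 43.4 ± 4.94 against 0.430 ± 0.149 CPM (adjusted p = 1.57e-05 and 5.86e-06). Irf9, the DNA-binding part of the type I signalling complex, was 79.4 ± 2.29 against 5.96 ± 0.731 CPM. In all of these the 2 groups did not overlap, and 11 genes differed by over 16-fold. Shares over all genes are not given here for either, and most genes tested differed between the cells, so neither is read as particular to the set.

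The 5 genes that were lower in LSECs alone were Ifngr1 (log2 difference −0.74), Irf1 (−0.51), the GTPase Mx1 (−3.18), Cxcl10 (−1.77) and Tgtp1 (−0.54, adjusted p = 0.0488, and 0.0685 with the block). Here the block joined same-numbered libraries of the 2 cells, for which no pairing is shown. Cxcl10 gave 12.1 ± 1.01 CPM in LSECs and 41.9 ± 2.94 CPM in Hepa1-6 cells, although Cxcl9, its neighbour on chromosome 5, gave 2.78 ± 0.245 CPM in LSECs and no count in any Hepa1-6 library grown alone. Against the most that a count of 0 allows (3 counts over the group, 0.0237 CPM), Cxcl9 was at least 117-fold higher in LSECs. Without LSEC mono-culture replicate 1 the count of lower genes went from 5 to 8. Cxcl10 overlaps Art3, and Tgtp1 has the near-identical copy Tgtp2, so their counts are uncertain.

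**Figure D2:**
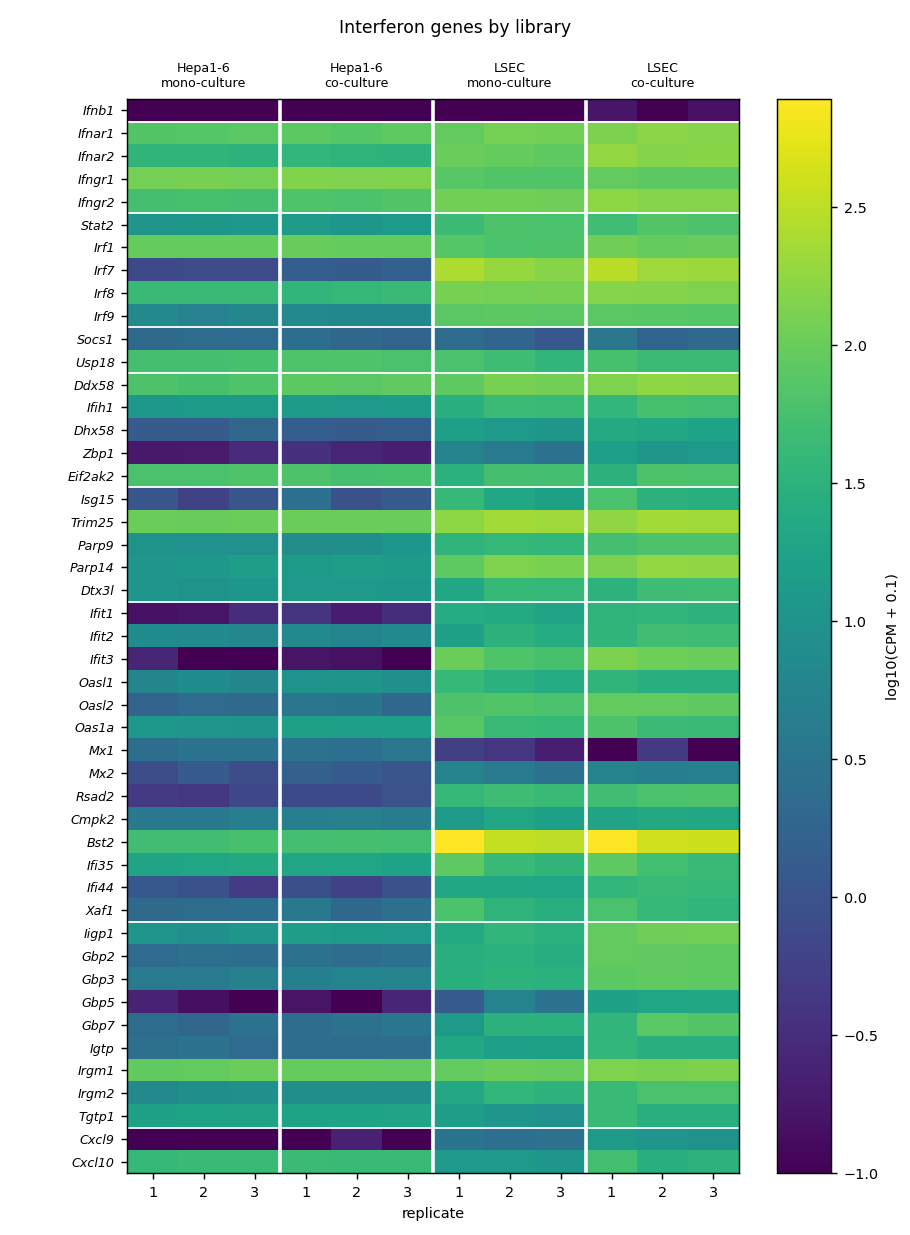
Level of each of the 47 interferon genes (rows, grouped by role) in each of the 12 libraries (columns), as log10(CPM + 0.1), on 1 scale. Most rows are brighter in LSECs than in Hepa1-6 cells, and Ifngr1, Irf1, Mx1 and Cxcl10 are brighter in Hepa1-6 cells alone than in LSECs alone.

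Interferon ligands were nearly absent from all cultures. Ifnb1, the first type I interferon made by most infected cells, gave 3 and 2 counts in LSEC co-culture replicates 1 and 3 and none in the other libraries, so it was not tested. Of 20 other interferon ligand genes, among them Ifng, the interferon alpha genes, Ifnk and both lambda genes, 17 had no count in any library and 3 (Ifnab, Ifne and Ifnz) had at most 9 counts in any. None of these was tested. A count of 0 allows up to 0.0614 to 0.0916 CPM per library, counting error only.

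Co-culture was compared with mono-culture in LSECs to see how endothelium changes when hepatoma cells share its medium. Both CXCR3 chemokines and 3 of the 9 interferon-inducible GTPases rose with Hepa1-6 cells, as did 1 of the 14 antiviral effectors. Of 46 genes tested, 9 rose and none fell, against 2.18% of all genes tested that rose and 0.911% that fell. They were Gbp2, Gbp3, Iigp1, Cxcl9, Cxcl10, Zbp1, Ifi44, Ifnar2 and Parp9, with rises of 1.62-fold to 3.86-fold. The median log2 fold change was 0.45 over the interferon genes and −0.03 over all genes, and 26 genes had all co-culture values above all mono-culture values (12.9% of all genes), with 0 below (8.64%). At an unadjusted p under 0.05 the counts were 24 higher and 0 lower, against 8.04% and 5.98% of all genes. DESeq2 called 19 higher and 0 lower, against 5.15% and 3.38%.

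With replicate number as a block, 33 interferon genes rose and none fell, among them all 9 called without it, against a background of 16.7% and 16.6%. Without replicate 1 of both LSEC groups 34 rose and none fell, against 19.4% and 17.0%, and 31 of the 33 called with the block were among them. Leaving out single libraries gave 6, 3 and 3 rises without co-culture replicates 1, 2 and 3, and 9, 5 and 3 without mono-culture replicates 1, 2 and 3. Gbp2, Gbp3 and Cxcl9 were called under all 13 alternatives run. Parp9 (adjusted p = 0.049) was lost under 10 of them, Ifi44 and Ifnar2 under 6, and Iigp1, Cxcl10 and Zbp1 under 5, where the highest adjusted p was 0.352 for Parp9, 0.105 for Ifi44, 0.212 for Ifnar2, 0.0973 for Iigp1, 0.164 for Cxcl10 and 0.181 for Zbp1.

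Some markers of other cells moved in the same comparison. The 18 macrophage markers summed to 2493 to 3641 CPM in LSEC mono-culture and 3725 to 4977 CPM in co-culture. Without the block 3 of them rose (Adgre1, Itgam and Cd14) and 2 fell (Cd5l and Vsig4), and with it 8 rose and 6 fell. The shares over all genes tested were 2.18% and 0.911% without the block and 16.7% and 16.6% with it. The 6 neutrophil markers summed to 0.283 to 1.69 CPM alone and 7.54 to 16.6 CPM in co-culture, where 1 of the 6 reached 1 CPM. Of the 2 neutrophil markers tested, 1 rose and the other was not called. The 14 endothelial markers summed to 13794 to 18273 and 16393 to 20121 CPM. Without the block 1 of them rose and none fell, and with it 12 rose and 1 fell. The 5 B cell markers summed to 1.03 to 1.96 and 3.14 to 4.61 CPM, and none of them reached 1 CPM. None of the 5 was called without the block and 1 rose with it, and 4 had co-culture ranges above those of mono-culture. None of the 12 T and NK cell markers reached 1 CPM and their sum was at most 1.00 CPM in any LSEC library, with 7 of 12 at no count alone and 5 of 12 in co-culture. Only 1 of the 12 was tested, and it fell with the block alone. Of the 6 plasmacytoid dendritic cell markers, 4 had no count in LSECs alone and 2, Siglech and Klk1, in co-culture. Their sums were 315 to 472 and 315 to 490 CPM, nearly all of it from Tcf4 (413 and 430 CPM on average), which Hepa1-6 cells also had at 229 CPM alone, while Cox6a2 averaged 1.18 and 0.208 CPM. Of the 2 plasmacytoid dendritic cell markers tested, 1 fell with the block alone. Hepatoma markers summed to 33.9 to 55.9 CPM in LSECs alone and 30.3 to 49.9 CPM in co-culture, against 4242 CPM or more in Hepa1-6 cells. Of the 7 hepatoma markers tested in LSECs none was called without the block, and 1 rose and 1 fell with it. The part of macrophages or other cells in the LSEC results was not tested, and in bulk libraries more cells of a type and more RNA per cell cannot be told apart.

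The 9 interferon-inducible GTPases all had co-culture ranges above the mono-culture ranges in LSECs, against 12.9% of all genes tested. Their median log2 fold change was 1.39. Without the block 3 of them rose (Iigp1, Gbp2 and Gbp3), and with it all 9 did, against 2.18% and 16.7% of all genes tested. Guanylate-binding proteins coat and break open pathogen vacuoles. Gbp2 gave 27.5, 30.5 and 26.7 CPM in mono-culture and 90.4, 87.9 and 84.4 CPM in co-culture, a 3.03-fold rise (log2 1.60, SE 0.13, adjusted p = 0.00237). Gbp3, its neighbour in a cluster on chromosome 3 (chr3:142560016-142573213), gave 29.4, 33.0 and 30.7 CPM and then 80.6, 86.7 and 83.3 CPM, a 2.63-fold rise (log2 1.39, SE 0.12, adjusted p = 0.00323). Replicate 1 lay with the others in both genes, and mono- and co-culture were far apart.

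Gbp5, also of that cluster and known to promote inflammasome assembly, had the largest fitted change of the set. It gave 1.26, 5.32 and 2.90 CPM alone and 16.9, 19.9 and 20.7 CPM in co-culture, so the groups did not overlap. Its log2 fold change of 2.58 (SE 0.49) just missed the threshold at an adjusted p of 0.0513, and with the block it was 2.71 at 0.00132. Gbp7 gave 13.2, 31.5 and 30.2 CPM alone and 36.8, 77.5 and 70.8 CPM in co-culture. Replicate 1 was the lowest in both groups, each pair was over 2 times higher in co-culture, and the adjusted p was 0.222 without the block and 1.47e-06 with it.

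Immunity-related GTPases load onto parasite and bacterial vacuoles. Iigp1 gave 23.5, 36.4 and 30.5 CPM alone and 90.8, 113 and 115 CPM in co-culture, a 3.45-fold rise (log2 1.78, SE 0.19, adjusted p = 0.00769). Tgtp1 gave 15.1, 11.1 and 9.09 CPM alone and 43.6, 28.8 and 27.7 CPM in co-culture, with a log2 fold change of 1.47 (SE 0.28) at an adjusted p of 0.0563, and 2.13e-06 with the block. The regulatory members Irgm1, Irgm2 and Igtp, which keep the others off the cell's own membranes, had log2 fold changes of 0.40, 0.76 and 0.75 with adjusted p of 0.160 to 0.194, and of 3.73e-05 to 0.000618 with the block. Irgm1 stood at 98.2 ± 6.51 CPM alone and 133 ± 3.31 CPM in co-culture. Replicate 1 held the highest co-culture value of Irgm1 and the lowest mono-culture one, and the ranges were apart. Near-identical reads between Gbp, Irgm and Tgtp relatives may have been shared, since their handling is not stated.

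Cxcl9 and Cxcl10, chemokines that attract T cells and NK cells through CXCR3, both rose in LSECs. Cxcl9 gave 3.01, 2.52 and 2.81 CPM alone and 13.0, 10.5 and 9.49 CPM in co-culture, a 3.86-fold rise (log2 1.95, SE 0.20, adjusted p = 0.00583). Cxcl10 gave 12.7, 12.7 and 11.0 CPM alone and 52.3, 27.8 and 32.6 CPM in co-culture, a 3.03-fold rise (log2 1.60, SE 0.27, adjusted p = 0.0364). The 3 co-culture values of Cxcl10 were all above the mono-culture values but spread widely, with replicate 1 highest, and the fold change was 1.33 on the log2 scale without replicate 1 in both groups.

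**Figure D3:**
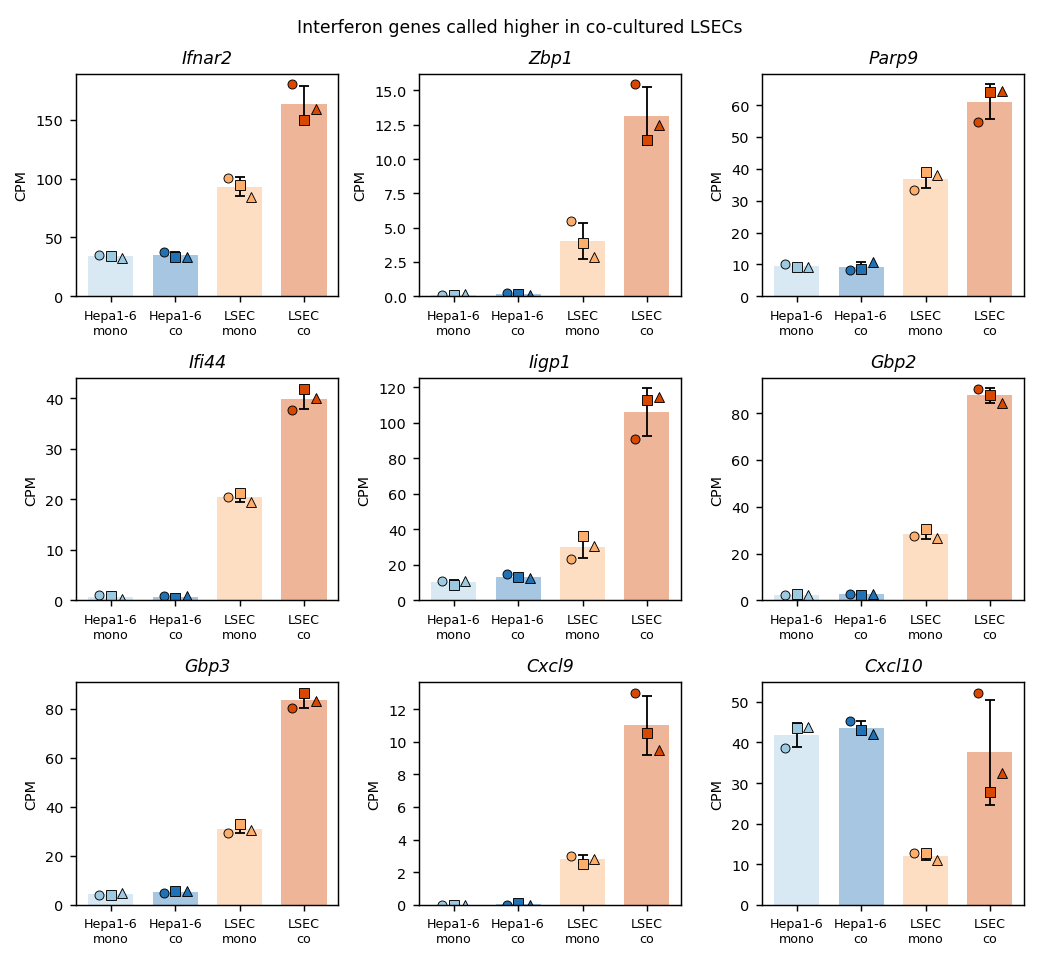
CPM of the 9 interferon genes called higher in co-cultured LSECs, in all 4 groups (bar, mean; whisker, SD; circle, square and triangle, replicates 1, 2 and 3). The LSEC co-culture points lie above all LSEC mono-culture points in each panel, and Cxcl10 is the one whose Hepa1-6 level exceeds that of LSECs alone.

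Among receptor subunits in LSECs, Ifnar2, the high-affinity chain for type I interferon, rose from 101, 94.1 and 84.5 CPM to 180.2, 149.7 and 159.5 CPM (log2 0.78, SE 0.14, adjusted p = 0.0478). The other subunits also had separate ranges. Ifnar1 gave 92.1, 119 and 116 CPM alone and 135, 165 and 156 CPM in co-culture, Ifngr2 114, 116 and 111 CPM and then 169, 151 and 152 CPM, and Ifngr1, the ligand-binding chain for interferon gamma, 76.4, 68.0 and 67.8 CPM and then 89.8, 80.6 and 82.4 CPM. Their log2 fold changes were 0.45, 0.43 and 0.22, with adjusted p of 0.229, 0.146 and 0.611 without the block and 0.000128, 0.000197 and 0.0104 with it. Ifnar2, Ifnar1 and Ifngr2 lie within 1 stretch of chromosome 16 (Ifnar2 at 91372783-91405589, Ifnar1 at 91485032-91510523 and Ifngr2 at 91547059-91564007, mm10).

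None of the 5 signal transducers and transcription factors passed the test in LSECs without the block. Irf1, which drives many interferon gamma targets and has a GAS core 90 bases before its start, gave 72.9, 60.5 and 63.1 CPM alone and 111, 94.8 and 97.1 CPM in co-culture (log2 0.59, SE 0.15, adjusted p = 0.119, and 3.43e-05 with the block). Its 2 groups did not overlap. Irf8, a factor of myeloid cells, gave 125, 119 and 124 CPM and then 151, 146 and 137 CPM (log2 0.20, adjusted p = 0.571, and 0.0123 with the block). Irf7 gave 263, 186 and 155 CPM and then 293, 212 and 201 CPM, with overlapping groups (log2 0.19, SE 0.26, adjusted p = 0.915, and 0.022 with the block). Stat2 (46.2, 64.1 and 58.6 CPM, then 50.7, 70.8 and 64.3 CPM) and Irf9 (77.4, 81.9 and 78.8 CPM, then 79.6, 76.4 and 72.3 CPM) had log2 fold changes of 0.11 and −0.10 and were called under neither fit. The feedback inhibitors were also called under neither. Socs1, which blocks JAK kinases, gave 2.28, 1.78 and 1.09 CPM and then 3.38, 1.68 and 2.12 CPM, and Usp18, which removes ISG15 and shuts the type I receptor, 59.0, 48.2 and 36.7 CPM and then 57.0, 44.6 and 45.0 CPM.

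Among the nucleic acid sensors, Zbp1, a sensor of Z-form nucleic acid that can trigger cell death, rose in LSECs from 5.46, 3.85 and 2.87 CPM to 15.5, 11.4 and 12.5 CPM, a 3.14-fold change (log2 1.65, SE 0.29, adjusted p = 0.0404). Ddx58, which encodes the RNA sensor RIG-I, gave 84.0, 122 and 117 CPM alone and 136, 169.5 and 166 CPM in co-culture, without overlap (log2 0.51, SE 0.18, adjusted p = 0.257, and 0.0001 with the block). Dhx58 and Ifih1, which encode the related LGP2 and MDA5, had log2 fold changes of 0.63 and 0.31 and were called with the block alone (adjusted p = 0.000592 and 0.00436). Eif2ak2, the double-stranded RNA kinase PKR, gave 30.4, 55.2 and 52.6 CPM and then 31.1, 63.8 and 62.0 CPM and was called under neither fit. It was called higher without replicate 1 in both groups (log2 0.20, adjusted p = 0.00818).

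Parp9, an ADP-ribosyltransferase that pairs with the ubiquitin ligase Dtx3l, rose in LSECs from 33.5, 38.9 and 37.9 CPM to 54.8, 64.2 and 64.3 CPM (log2 0.70, SE 0.13, adjusted p = 0.049). Parp9 and Dtx3l overlap in the genome, so their reads may not be told apart if strand was not used in counting, which is not stated. Dtx3l, Parp14 and the ubiquitin-like modifier Isg15 had log2 fold changes of 0.36, 0.47 and 0.56, called with the block alone (adjusted p = 0.0047, 0.000121 and 0.000449). Isg15 gave 40.6, 20.5 and 16.5 CPM and then 58.4, 31.1 and 28.7 CPM, so that replicate 1 was highest in both groups and the groups overlapped. Trim25, the ligase that acts on RIG-I, was at 200.2 ± 28.4 CPM alone and 205 ± 25.5 CPM in co-culture.

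Of the 14 antiviral effectors 1 rose in LSECs without the block and 7 did with it, against 2.18% and 16.7% of all genes tested. The median log2 fold change of the 14 was 0.27. Ifi44, a common marker gene of the interferon response, rose from 20.4, 21.3 and 19.5 CPM to 37.7, 41.8 and 40.0 CPM (log2 0.93, SE 0.12, adjusted p = 0.0133). The RNA-binding Ifit1, Ifit2 and Ifit3, neighbours on chromosome 19, had log2 fold changes of 0.57, 0.81 and 0.55 with adjusted p of 0.171, 0.213 and 0.475, and of 0.00103, 0.000118 and 0.00084 with the block. Ifit2 gave 16.9, 31.9 and 25.6 CPM alone and 35.4, 49.1 and 48.8 CPM in co-culture. Oasl2, Rsad2 and Cmpk2 were also called with the block alone, at log2 fold changes of 0.45, 0.39 and 0.30 in that fit.

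The other 7 effectors were called neither with nor without the block. Without replicate 1 in both groups Bst2 (log2 0.27, adjusted p = 9.06e-05) and Xaf1 (0.29, 0.0156) were called higher and the rest of the 7 were not. In that run Cmpk2, called with the block, was not called (adjusted p = 0.139). Bst2 gave 774, 346 and 319.5 CPM alone and 780.2, 413 and 401 CPM in co-culture, with replicate 1 far above the others in both groups (log2 0.11, SE 0.45). Oas1a and Oasl1, of the 2′-5′ oligoadenylate synthetase family, had log2 fold changes of −0.12 and −0.10. Mx2, Ifi35 and Xaf1 had values of 0.25, 0.08 and 0.11. Mx1 gave at most 0.448 CPM in any LSEC library and no count in co-culture replicates 1 and 3.

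**Figure D4:**
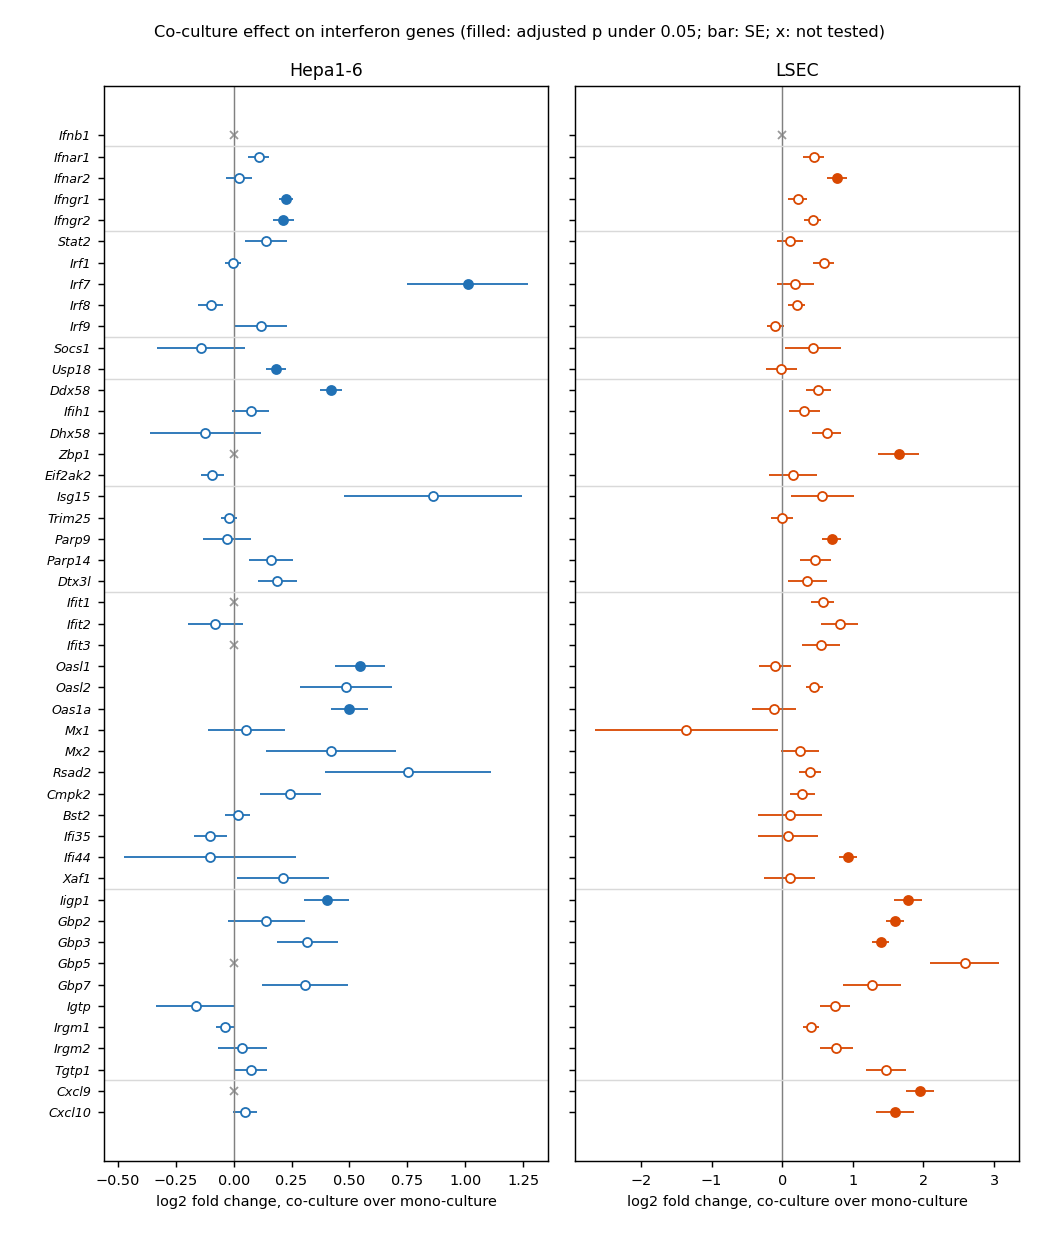
Log2 fold change of each interferon gene, co-culture over mono-culture, in Hepa1-6 cells (left) and LSECs (right), with SE bars; filled points passed an adjusted p of 0.05 without the block and crosses were not tested. The x axes differ in range. Gbp5 (log2 2.58, not called), Cxcl9 (1.95), Iigp1 (1.78) and Zbp1 (1.65) lie furthest to the right in LSECs and Irf7 (1.01) in Hepa1-6 cells.

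In Hepa1-6 cells, co-culture was compared with mono-culture to ask how hepatoma cells change beside endothelium. RIG-I, Irf7, a pair of oligoadenylate synthetase family genes and both interferon gamma receptor subunits rose, all by 2.02-fold or less. Of 41 genes tested, 8 rose and none fell, while 8.50% of all genes tested rose and 7.03% fell. With no adjustment, at a p under 0.05, the counts were 14 and 0, against 13.8% and 12.9% of all genes. DESeq2 also called 8 and 0, against 7.83% and 6.48%. The median log2 fold change was 0.12 over the interferon genes and 0.00 over all genes, and 11 genes had co-culture ranges above those of mono-culture (15.9% of all genes) with 0 below (14.8%). The 8 calls were Ddx58, Ifngr1, Oas1a, Oasl1, Ifngr2, Iigp1, Usp18 and Irf7. Ifnb1, Zbp1, Ifit1, Ifit3, Gbp5 and Cxcl9 fell under the filter on low counts.

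Ddx58 had the smallest p of the set in Hepa1-6 cells. It gave 63.6, 58.1 and 65.1 CPM alone and 81.5, 79.7 and 88.7 CPM in co-culture, a 1.34-fold rise (log2 0.42, SE 0.05, adjusted p = 1.73e-06). Irf7 went from 0.631, 0.708 and 0.668 CPM to 1.35, 1.26 and 1.45 CPM, a 2.02-fold rise (log2 1.01, SE 0.26, adjusted p = 0.0102). The 2 groups were well apart, and the co-culture level was 0.575% of that in co-cultured LSECs. Ifit3, at 115 ± 17.6 CPM in co-cultured LSECs, stood at 0.0588, 0.0504 and 0 CPM in co-cultured Hepa1-6 cells and at 0.165, 0 and 0 CPM in those alone. The 14 endothelial markers summed to 28.0 to 31.0 CPM in Hepa1-6 cells alone and 38.5 to 40.2 CPM in co-culture, where 6 of them had no count, and Stab1 made up most of the sum (26.9 CPM alone and 37.1 CPM in co-culture). The 18 macrophage markers summed to 20.6 to 23.6 and 26.1 to 27.0 CPM.

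Among the synthetase family, Oas1a gave 11.8, 11.1 and 10.4 CPM alone and 16.0, 15.4 and 15.7 CPM in co-culture, a 1.41-fold rise (log2 0.50, SE 0.08, adjusted p = 9.88e-05). Oasl1, which restrains Irf7 translation in mice, gave 6.01, 7.75 and 6.06 CPM and then 10.0, 10.1 and 8.93 CPM, a 1.46-fold rise (log2 0.55, SE 0.11, adjusted p = 0.0013). Both pairs of groups were separate. Ifngr1 gave 118, 123 and 119 CPM and then 143, 139 and 138 CPM, a 1.17-fold rise (log2 0.23, SE 0.03, adjusted p = 2.12e-05), and Ifngr2 55.9, 57.4 and 55.8 CPM and then 66.2, 60.9 and 69.1 CPM, a 1.16-fold rise (adjusted p = 0.0022). The type I receptor subunits were not called. Ifnar1 gave 71.0, 73.3 and 78.5 CPM and then 82.0, 74.5 and 83.9 CPM (log2 0.11, adjusted p = 0.135), and Ifnar2 35.1, 34.6 and 32.9 CPM and then 37.7, 33.8 and 33.1 CPM (log2 0.02, adjusted p = 0.842).

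Usp18 rose from 55.0, 54.7 and 58.2 CPM to 65.0, 65.8 and 60.2 CPM (1.14-fold, adjusted p = 0.00625). Iigp1 rose from 10.8, 8.81 and 11.0 CPM to 14.9, 13.2 and 12.4 CPM (1.32-fold, adjusted p = 0.00601), and was not called without mono-culture replicate 2 (adjusted p = 0.0581). The other GTPases tested were not called, and Gbp2 stood at 2.43 ± 0.220 CPM alone and 2.68 ± 0.271 CPM in co-culture. Isg15 gave 1.02, 0.487 and 1.00 CPM and then 2.56, 0.832 and 1.20 CPM, overlapping groups with an adjusted p of 0.165. Rsad2 had separate ranges (0.332 to 0.601 CPM, then 0.647 to 0.881 CPM) at an adjusted p of 0.182. Irf1 (94.5 ± 0.594 and 94.4 ± 1.85 CPM), Irf8 (42.5 ± 1.33 and 39.6 ± 2.76 CPM), Stat2 (11.3 ± 0.605 and 12.5 ± 1.32 CPM), Irf9 (5.96 ± 0.731 and 6.47 ± 0.134 CPM) and Cxcl10 (41.9 ± 2.94 and 43.5 ± 1.67 CPM) were not called either.

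**Figure D5:**
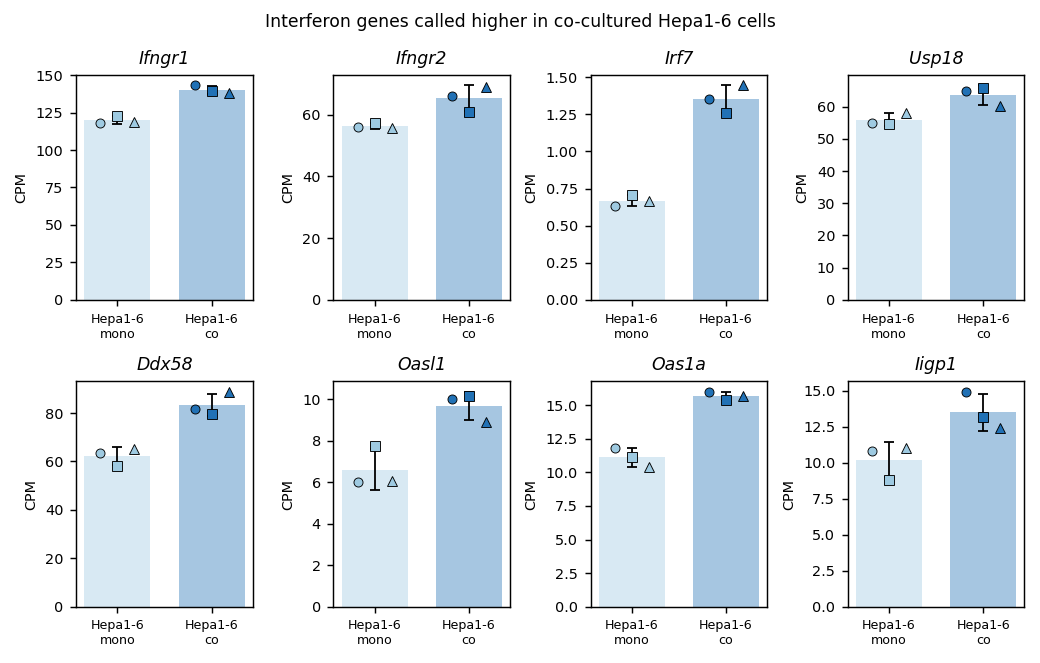
CPM of the 8 interferon genes called higher in co-cultured Hepa1-6 cells, alone and in co-culture (bar, mean; whisker, SD; circle, square and triangle, replicates 1, 2 and 3). All co-culture points lie above the mono-culture points in each panel, by 1.14-fold (Usp18) to 2.02-fold (Irf7) in the fitted means.

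Whether the co-culture effect differed between the cells was tested as an interaction over all 12 libraries. That fit gave each gene 1 spread for both cells, although LSEC replicates varied more, so its p-values may be too small. For Irf1 the SE was 0.1326, against 0.1485 in the LSEC comparison. Irf1 and Tgtp1 were not called in that comparison without the block (adjusted p = 0.119 and 0.0563). The effect was larger in LSECs for 7 of 46 interferon genes and smaller for none, against 1.40% and 0.951% of all genes tested. The 7 were Gbp2 (log2 difference 1.49, SE 0.16, adjusted p = 0.000521), Gbp3, Iigp1, Tgtp1, Cxcl10, Ifnar2 and Irf1. At an unadjusted p under 0.05 the counts were 17 and 2, against 6.16% and 5.40% of all genes, and DESeq2 called 12 and 0, against 3.94% and 3.06%. With the block 18 were larger in LSECs and 3 smaller, against 9.36% and 7.98% of all genes. In that fit Hepa1-6 libraries were blocked by number as well, although no pairing of them is shown. The 3 smaller ones were Irf7 (−0.77, adjusted p = 0.0169), Oasl1 (−0.60, 0.0165) and Oas1a (−0.55, 0.0075), whose fold changes were 1.01, 0.55 and 0.50 in Hepa1-6 cells and 0.19, −0.10 and −0.12 in LSECs on the log2 scale. The 18 included 8 of the 9 GTPases, the exception being Gbp5, which had 0.158 CPM or less in any Hepa1-6 library. For Ddx58, which was called in Hepa1-6 cells, the difference was 0.12 (SE 0.20, adjusted p = 1.0 and 0.232 with the block). Iigp1 was the 1 gene called in both cells without the block, and 5 were with it.

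Other genes of the pathway were listed by role. Of 20 further signalling genes, 17 were tested in Hepa1-6 cells, where 5 rose, among them Jak2 (log2 0.33), Ikbke (0.31), Il10rb (0.27) and Jak1 (0.13), and 2 fell, Nmi (−0.28) and Mavs (−0.12). Over all genes tested 8.50% rose and 7.03% fell. The median of the list was −0.03, against 0.00 for all genes. In LSECs 19 were tested and 1 rose, Ikbke, a kinase that activates IRF3 and IRF7, from 25.5 to 78.5 CPM (log2 1.59, SE 0.14, adjusted p = 0.00365). With the block 11 rose and none fell. Over all genes tested in LSECs 2.18% rose and 0.911% fell, and 16.7% and 16.6% with the block. Ikbke was the 1 gene of this list whose effect was larger in LSECs (log2 difference 1.31, adjusted p = 0.00042), against 1.40% of all genes tested.

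Of 61 further interferon-stimulated genes, 58 were tested in LSECs, where 7 rose and 2 fell, with a median log2 fold change of 0.33. Of the 7, 5 were GTPases of the families above, namely Gbp4 (14.9 to 49.1 CPM, log2 1.69, adjusted p = 0.00522), Gbp6 (log2 1.86), Gbp9 (1.60), Ifi47 (1.47) and Tgtp2 (1.38). Cd274, which encodes the checkpoint ligand PD-L1, rose from 18.4 to 72.9 CPM (log2 1.96, SE 0.21, adjusted p = 0.00665), and Lgals3bp (1.18) also rose. Gbp8 (−1.54) and Oas3 (−1.52) fell. With the block 37 rose and 5 fell. The shares over all genes tested were 2.18% and 0.911% without the block, and 16.7% and 16.6% with it. In Hepa1-6 cells 51 were tested, 11 rose and 1 fell, with a median of 0.09, while 8.50% of all genes tested rose and 7.03% fell. The rises included Ifi27 (7.15 to 10.4 CPM, log2 0.54, adjusted p = 0.000601), Ifi209 (0.61), Helz2 (0.22), Lgals3bp (0.13) and Samd9l (0.22), and Ifitm2 fell by 0.12 on the log2 scale.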

How the data were processed

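A stranded mRNA kit was used on 1 μg of total RNA of each of 12 cultures, per the labels' protocols. Reads were aligned with HISAT2 and quantified with StringTie on mm10, per the submitters' processing notes; versions, annotation and strand setting are not given in the sources used here. Per the file headers, the authors deposited a read count per gene and library, in whole numbers and treated here as an estimated count, beside values normalised to TPM. The FPKM columns were not used. The transcript table gave lengths and positions, and 46 of 47 genes start at the same base in GRCm38.p6. For the co-cultures, the first cell named in the title was taken as the one sequenced, and markers were checked.

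Each comparison was fitted on all genes with edgeR 4.0.16 in R 4.3.3 (filterByExpr, TMM scaling, robust quasi-likelihood F-test, Benjamini-Hochberg adjustment at 0.05), on the 6 libraries compared or, for the interaction, on 12. The fit without the block was run on simulated counts for the LSEC and the Hepa1-6 co-culture comparisons. These were drawn independently per library, without the replicate 1 shift of the LSEC groups, so they do not bear on the block or interaction fits. CPM are on 1 TMM scale over the 12 libraries, and standard errors derive from the F statistic. Alternatives were RLE scaling, no filter, DESeq2 1.42.0, limma 3.58.1 on log2(TPM + 1) and log2(TPM + 0.1), a replicate block and leaving out libraries.

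Deviations of same-numbered LSEC libraries correlated at 0.892, 0.684 and 0.717, above the limit of 0.1, although replicates 2 and 3 also correlated with each other's number (0.744 and 0.688); the numbers were taken from the titles as pairs. The Hepa1-6 values were 0.0798, 0.0131 and −0.0089, so no pairing of these is shown. Block fits of the interaction, of the mono-cultures and of Hepa1-6 cells nevertheless used the replicate numbers of Hepa1-6 libraries.

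The genes, roles and lists were chosen with earlier results of these data known. Values per library were given for ligand, receptor, signalling and feedback genes and, in each other role, for up to 6 genes with the smallest p or largest TPM; of each further list up to 6 genes with the smallest p were named. Gbp9, Ifi47, Oas3, Mavs and the macrophage markers were named after their values were seen. Overlapping or near-identical genes (Parp9 and Dtx3l, Cxcl10 and Art3, Stat2 and Apof, Ifit1 and Ifit1bl1, the Gbp, Oas and Tgtp families) are uncertain, because no source says how reads matching both were assigned. A gene of the further signalling list is not reported here by name.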

Additional observations from a re-analysis of the deposited data

Results flagged for a closer look

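For 7 genes the co-culture effect was larger in LSECs than in Hepa1-6 cells by the interaction test (edgeR, adjusted over all genes, with 1 spread for both cells). On the log2 scale the difference was 1.49 for Gbp2 (adjusted p = 0.000521), 1.11 for Gbp3 (0.0061), 1.41 for Iigp1 (0.0116), 1.58 for Cxcl10 (0.0147), 0.78 for Ifnar2 (0.0163), 1.43 for Tgtp1 (0.0278) and 0.62 for Irf1 (0.0358). Gbp2 kept its call under all 19 alternatives. Irf1 lost it under 11 of them, Tgtp1 under 8, Ifnar2 under 4, Cxcl10 under 3, Iigp1 under 2 and Gbp3 under 1, with a highest adjusted p of 0.116 for Irf1, 0.0854 for Tgtp1, 0.0625 for Ifnar2, 0.0527 for Cxcl10, 0.287 for Iigp1 and 0.0914 for Gbp3. All 3 co-culture values lay above all 3 mono-culture values in LSECs for each of the 7. In Hepa1-6 cells they did so for Iigp1 and Tgtp1.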

How the results depend on the processing

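Counts of interferon genes called higher in co-cultured Hepa1-6 cells were 7 to 10 when single libraries were left out, with 0 lower, and 8 under each other alternative. In LSECs the count of 9 became 19 with DESeq2, 33 with the replicate block and 3 to 34 when libraries were left out (34 without replicate 1 in both groups), with 0 lower throughout. For the mono-cultures 37 were higher and 4 to 8 lower when libraries were left out. For the difference of the effects, the 7 higher became 12 with DESeq2, 11 with limma on log2(TPM + 1), 18 with the replicate block and 3 to 19 when libraries were left out. The 0 lower became 1 with limma on log2(TPM + 0.1), 3 with the block and 0 to 3 when libraries were left out. The Cxcl9 difference of −1.86, not called, was 1.51 and 1.65 with limma on log2(TPM + 1) and log2(TPM + 0.1); it has 1 Hepa1-6 library with counts, and the cause of these changes was not tested. In Hepa1-6 cells the block changed no call among the 47 interferon genes, and 9 further interferon-stimulated genes were called higher with it, against 11 without. Of the calls for single interferon genes across the alternatives, 29 were lost and 46 gained for the difference, 37 and 64 for LSECs, 1 and 5 for Hepa1-6 cells, and 9 and 3 for the mono-cultures. For the difference, 2 further runs had the opposite sign to the main fit, with a call in the main fit, the alternative or both. Genes near 0 in Hepa1-6 cells (Ifit1, Ifit3, Gbp5, Cxcl9 and Zbp1) are limited by depth.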
